A study of Mus musculus with 18 samples.

Results

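Pseudogenes are copies of genes that have lost the capacity to code for a full protein. The set described here holds the autosomal genes that GENCODE vM1, on mouse genome build NCBIM37, annotates as pseudogenes, that have a single exon and that do not overlap a protein-coding gene. These criteria left 1975 of the 37310 annotated genes: 4055 autosomal genes were of the pseudogene class, 2963 of these had a single exon, and 1975 of those lay clear of protein-coding genes. The membership rule used the annotation alone and no methylation value.

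Whole-genome bisulfite sequencing, which reads methylation at single cytosines, was applied to mouse embryonic stem cells (ESCs), giving 9 control libraries and 9 libraries from cells lacking the maintenance methyltransferase Dnmt1 (Dnmt1 KO). Both genotypes were collected at days 1, 3, 6, 9 and 11, in 2 replicates each, apart from day 6 with 1 library of each genotype. Per the study's methods, the ESCs were grown in serum with LIF, and Dnmt1 was removed by a Cre recombinase that 4-hydroxytamoxifen activates, in a line with loxP sites in both Dnmt1 copies. The labels name E14 as the background of the libraries of both genotypes, while the methods describe a line on C57BL/6. No RNA was measured in these libraries, so the labelled cell type was not checked against marker genes.

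Each library held 7190722 to 11158414 calls, a call being 1 read at 1 cytosine, and the mitochondrial genome, which carries little CpG methylation, had 0.228% to 0.467% methylated calls. At Dnmt1 itself, CpGs of exons 4 and 5 (chr9:20744920-20746027, 20 CpGs) had 2 to 18 calls in each control library, 0 and 2 calls in the Dnmt1 KO libraries of day 1, and 0 calls in each of the 7 Dnmt1 KO libraries of days 3 to 11. Pooled over the 18 libraries, the pseudogene bodies received 142109 calls at 22355 CpGs and their flanks of 2 kb on each side 475293 calls at 64786 CpGs. Each library contributed 5648 to 9742 calls in the bodies, and single members were thinly covered, with a median of 51 calls over all 18 libraries. Of the 1975 members, 91 held no CpG and 152 received no call.

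Processed pseudogenes, also called retrocopies, arise when the reverse transcriptase of a retrotransposon copies a spliced mRNA into DNA, which is why they lack introns and often carry the trace of a poly(A) tail. Unprocessed pseudogenes arise by duplication of genomic DNA, and an intronless parent such as an olfactory receptor gene gives an unprocessed copy of 1 exon. Methylated cytosines mutate readily to thymine, so that a CpG in methylated DNA decays over evolutionary time to TG on its own strand or to CA when the other strand mutates. Dnmt1 restores CpG methylation on the new strand after replication, and its loss leaves methylation to dilute with each division.

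The members ranged from 28 to 7293 bp with a median of 522 bp. Transcript types of the annotation marked 1629 as processed, 223 as unprocessed and 1 as both, and left 122 without a kind. The bodies were richer in CpG than their surroundings: the median was 1.49 CpGs per 100 bp of body against 0.725 in the flanks, and the median GC content was 47.8% against 41.7%. They were grouped by the CpG density of the body into 701 of low density (under 1 CpG per 100 bp), 949 of middle density (1 to under 3) and 325 of high density (3 or more). The 3 sequences that follow give an example of each class, at the densest part of the member rather than at the typical density of the class. Each is the stretch of 300 bases with most CpGs in the most called member of its class, on the gene's strand in NCBIM37, with every CG in capitals.
Gm15366, low density, lies at chr8:19037487-19037786 on the minus strand with 10 CpGs. Gm13034, middle density, lies at chr4:146034976-146035275 on the plus strand with 51 CpGs. Gm11620, high density, lies at chr11:105026173-105026472 on the minus strand with 32 CpGs.
Gm15366: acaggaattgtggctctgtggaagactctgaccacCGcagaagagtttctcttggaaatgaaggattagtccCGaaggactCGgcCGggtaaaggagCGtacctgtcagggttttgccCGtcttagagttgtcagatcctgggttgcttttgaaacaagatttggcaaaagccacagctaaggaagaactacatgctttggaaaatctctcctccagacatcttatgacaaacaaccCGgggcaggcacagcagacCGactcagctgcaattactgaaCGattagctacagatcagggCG
Gm13034: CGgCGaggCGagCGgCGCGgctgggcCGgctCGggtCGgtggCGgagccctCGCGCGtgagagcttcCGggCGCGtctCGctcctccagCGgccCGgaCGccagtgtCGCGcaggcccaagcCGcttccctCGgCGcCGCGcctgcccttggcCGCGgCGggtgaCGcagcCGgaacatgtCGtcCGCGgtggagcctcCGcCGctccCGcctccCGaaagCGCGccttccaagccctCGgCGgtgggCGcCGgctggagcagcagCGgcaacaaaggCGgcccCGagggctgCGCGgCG
Gm11620: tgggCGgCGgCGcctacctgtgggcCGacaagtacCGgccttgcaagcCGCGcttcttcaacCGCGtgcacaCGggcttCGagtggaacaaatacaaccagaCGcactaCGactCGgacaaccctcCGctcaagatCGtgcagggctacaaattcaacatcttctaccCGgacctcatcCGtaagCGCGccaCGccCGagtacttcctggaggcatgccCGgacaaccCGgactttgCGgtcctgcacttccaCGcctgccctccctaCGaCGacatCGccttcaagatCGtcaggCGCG

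A member's class describes its whole body and not each stretch of it. Gm13034 is a 3405 bp copy of the mRNA of Smarca5, a chromatin remodelling ATPase, with 2.91 CpGs per 100 bp of body, and the 300 bases shown hold 51 of its 99 CpGs. The next 3 sequences are of members described further on for their methylation. Vamp7-ps, at chr2:173872377-173872676 on the minus strand with 15 CpGs, had the highest Dnmt1 KO level of the eligible members with a control level of 50% or more. Hist3h2bb-ps, at chr11:58767591-58767890 on the minus strand with 26 CpGs, had the lowest control level, and Gm11336, at chr13:23838063-23838362 on the minus strand with 33 CpGs, the highest density.
Vamp7-ps: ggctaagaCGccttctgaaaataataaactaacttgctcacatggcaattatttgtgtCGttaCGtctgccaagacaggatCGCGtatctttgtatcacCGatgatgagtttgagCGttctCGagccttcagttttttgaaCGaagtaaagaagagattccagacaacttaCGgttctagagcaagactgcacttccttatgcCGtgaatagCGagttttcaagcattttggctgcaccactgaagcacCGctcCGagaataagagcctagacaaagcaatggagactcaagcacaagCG
Hist3h2bb-ps: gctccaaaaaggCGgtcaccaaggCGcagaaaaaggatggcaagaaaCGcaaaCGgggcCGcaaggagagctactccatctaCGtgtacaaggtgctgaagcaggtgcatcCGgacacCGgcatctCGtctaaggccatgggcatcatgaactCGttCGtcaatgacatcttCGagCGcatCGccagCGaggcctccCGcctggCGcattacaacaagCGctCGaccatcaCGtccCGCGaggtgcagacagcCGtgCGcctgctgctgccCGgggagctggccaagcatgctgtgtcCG
Gm11336: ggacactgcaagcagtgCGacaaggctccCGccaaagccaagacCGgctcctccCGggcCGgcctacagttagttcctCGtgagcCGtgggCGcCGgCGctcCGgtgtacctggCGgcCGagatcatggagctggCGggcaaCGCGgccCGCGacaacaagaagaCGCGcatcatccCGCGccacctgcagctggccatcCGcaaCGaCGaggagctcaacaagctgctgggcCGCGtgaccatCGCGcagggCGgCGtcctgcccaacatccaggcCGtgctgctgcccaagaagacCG

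The parent genes could be named for most members. A BLAST search against the protein-coding transcripts of the same annotation gave a match over at least 50% of the body for 1897 members, with a median identity of 91.1%, and 1881 of these matched on the sense strand. Ribosomal proteins, the structural proteins of the ribosome, were the best match of 448 members, of which 295 matched a protein of the large subunit and 153 a protein of the small subunit. Vomeronasal receptors matched 90 members, olfactory receptors 84, glycolytic enzymes 73 (Gapdh alone 51), high mobility group proteins 54, translation factors 40, zinc finger proteins 23 and cytoskeletal proteins 18. Another 7 matched the pluripotency-associated Dppa genes. A run of 10 adenines, a possible remnant of a poly(A) tail, lay within 300 bp downstream of 16.8% of the members and within 300 bp upstream of 4.71%, against 3.16% of autosomal 300 bp windows. The share downstream was 19.3% for processed and 3.14% for unprocessed members.

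The CpG classes differed in how much of the parent's CpG content they still held. At 31698 CpGs of the matched coding transcripts, the pseudogene had kept CG at 49.7%, held TG or CA at 34.8%, and held another dinucleotide or a gap at 15.6%. Low-density members had kept 14.4%, middle-density members 50.6% and high-density members 77.8%, an order that the classes themselves partly fix. GpC, which has the same bases in the other order, was kept at 80% of positions over all members and at 67.3% even in low-density members. The identity to the matched transcript followed the same order, with medians of 84.9%, 92.4% and 96.8%.

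**Figure D1:**
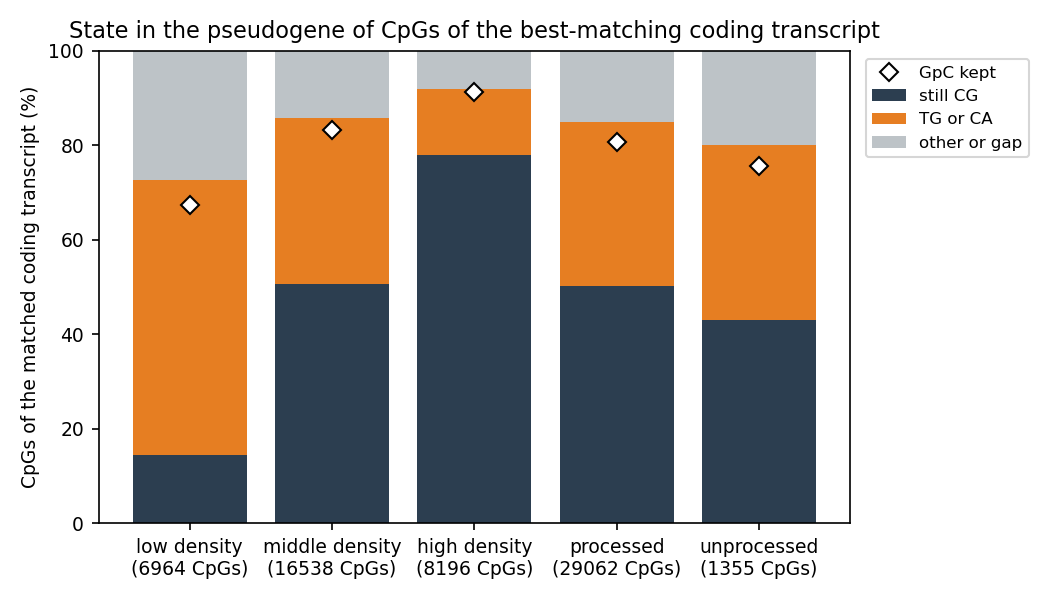
Bars give the state in the pseudogene, as a percentage (y axis), of CpGs of the best-matching coding transcript, for each density class and for processed and unprocessed members, and diamonds give the percentage of GpCs kept. In low-density members 58.3% of the transcript's CpGs read TG or CA while 67.3% of its GpCs were kept.

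Bodies lost most of their methylation in Dnmt1 KO cells, as did their flanks. In control cells the bodies were methylated at 79.2% and 77.8% of calls at day 1, 77.0% and 77.5% at day 3, 82.2% at day 6, 80.1% and 78.1% at day 9, and 75.4% and 73.5% at day 11. In Dnmt1 KO cells they were methylated at 71.4% and 73.0% at day 1, 35.8% and 36.6% at day 3, 25.2% at day 6, 24.9% and 27.7% at day 9, and 25.5% and 25.4% at day 11. Every Dnmt1 KO library lay below every control library of its day, and the level changed little after day 6. Averaged over days, the Dnmt1 KO level was 41.2 percentage points lower, as a difference of levels (two-sided exact permutation of genotype within days, p = 0.00077, the smallest that the 2592 arrangements allow; adjusted p = 0.00309 over the 20 tests of this kind).

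The flanks fell by 41.0 points under the same exact permutation test (p = 0.00077, adjusted p = 0.00309). The excess of bodies over flanks, taken over all members, did not differ detectably between genotypes, with a difference of -0.248 points (exact permutation p = 0.525, adjusted p = 0.553). This pooled value does not describe each class. At days 6 to 11, low-density bodies were at 80.3% against 77.3% in flanks in control cells. In Dnmt1 KO cells they were at 19.9% against 20.9%. Middle-density bodies were at 81.8% against 75.8% in control and 28.3% against 24.6% in Dnmt1 KO cells. High-density bodies were at 68.7% against 70.1% and 23.6% against 23.4%. These class gaps were not tested between genotypes. For scale, all autosomal CpGs went from 71.4% to 79.0% in control day means to 24.2% to 25.1% in Dnmt1 KO cells of days 6 to 11. Protein-coding genes of a single exon, the intact genes nearest in structure to a retrocopy, were at 40.2% to 47.6% in control day means and at 12.7% to 14.4% in Dnmt1 KO cells of days 6 to 11. Coding exons were at 73.2% to 77.5% in control day means and at 29.8% to 31.4% in Dnmt1 KO cells of days 6 to 11, and whole bodies of protein-coding genes at 70.6% to 78.1% and 25.8% to 27.0%. At days 6 to 11 in Dnmt1 KO cells, pseudogene bodies thus lay above single-exon coding genes and below coding exons, comparisons for which no test was run. Their day means of 25.2% to 26.3% were only slightly below those of protein-coding gene bodies, also with no test. In replicate 2 of day 9 the order was reversed, at 27.67% for pseudogene bodies and 27.64% for protein-coding gene bodies.

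**Figure D2:**
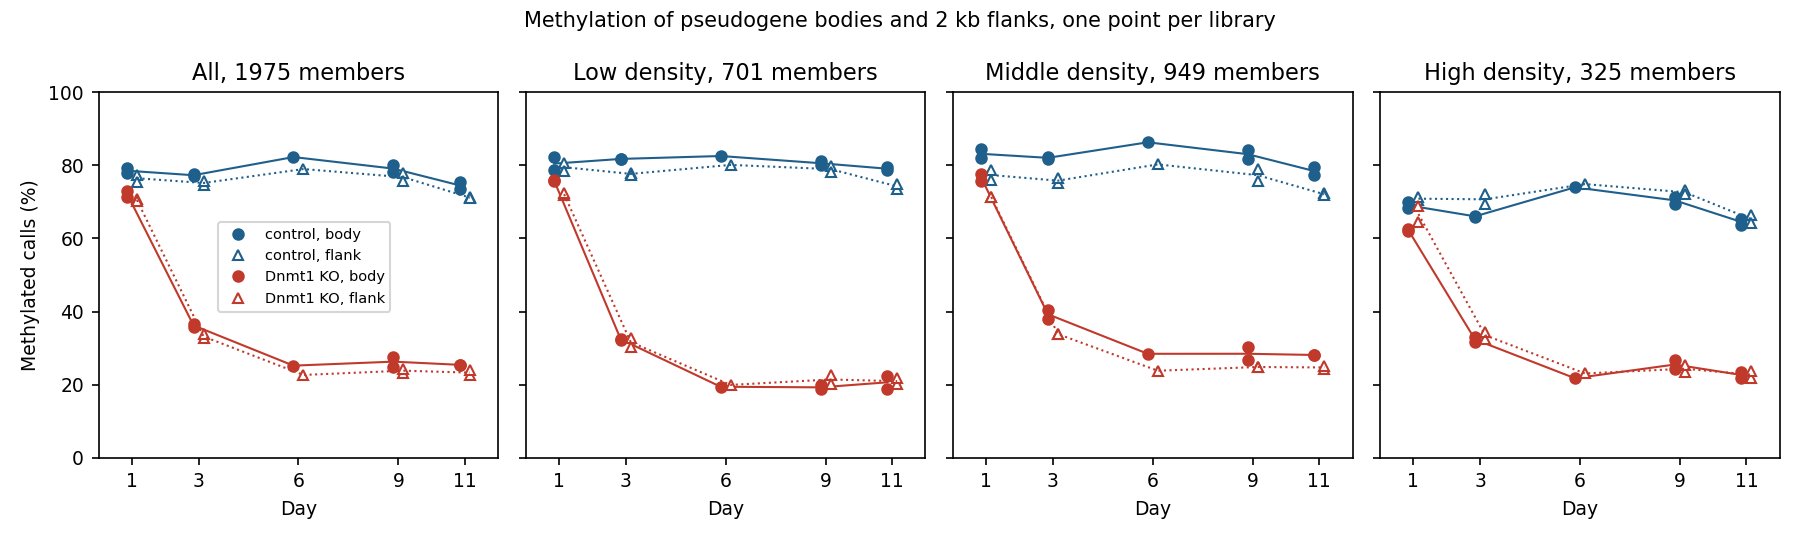
Methylated calls in percent (y axis) against day (x axis) for bodies (filled circles) and 2 kb flanks (open triangles) of all members and of each density class, with 1 point per library and lines through the day means. Control bodies of all members sit between 73.5% and 82.2%, and Dnmt1 KO bodies drop from above 71% at day 1 to between 24.9% and 27.7% at days 6 to 11.

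The 3 density classes fell by different amounts. Low-density bodies fell by 47.3 points averaged over days, middle-density bodies by 42.4 and high-density bodies by 35.9, and in each class no Dnmt1 KO library reached the control range of its day on any of the 5 days (exact permutation p = 0.00077, adjusted p = 0.00309 for each). The classes also started from different control levels. High-density bodies had day means of 64.5% to 73.9% in control cells, while low-density bodies had 79.0% to 82.5% and middle-density bodies 78.4% to 86.3%. As a share of the control level of the same day, 23.6% to 26.1% was left in low-density bodies at days 6 to 11, 33.0% to 35.9% in middle-density bodies and 29.4% to 36.2% in high-density bodies. Differences in these shares between classes were not tested. Over all members, the 7 Dnmt1 KO libraries of days 3 to 11 kept 37.0% ± 6.89 (SD, n = 7) of the control level in bodies and 34.9% ± 6.48 (SD, n = 7) in flanks, a difference of 2.08 points in the same direction in 7 of 7 libraries (two-sided exact sign-flip permutation test, p = 0.0156, the smallest that 128 arrangements allow; adjusted p = 0.0184). Bodies kept 46.8% at day 3 and 30.6% to 34.1% at days 6 to 11, so these SDs hold the change over days as well as the spread between replicates. Libraries of a day were also divided by the same control mean, so the units of this test are not independent. With at least 2 calls required per cytosine the difference between bodies and flanks was 1.27 points and did not pass, and among unprocessed members alone it was -2.70 points and did not pass.

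Against their own flanks, control bodies stood higher in the low and middle classes and lower in the high class, each class taken as a whole. Over the 9 control libraries, all bodies exceeded their flanks by 2.56 points ± 0.747 (SD), low-density bodies by 2.83 ± 1.78 and middle-density bodies by 6.03 ± 0.568, each in 9 of 9 libraries. High-density bodies lay 2.19 points below their flanks (SD 1.72), and in 0 of 9 libraries above them. Each of these 4 differences had p = 0.0039 by the two-sided exact sign-flip permutation test, the smallest that 512 arrangements allow, and an adjusted p of 0.00651. From day 3 on, the excess of all bodies in the 7 Dnmt1 KO libraries was 2.54 points ± 0.724 (SD) and was present in 7 of 7 libraries (exact sign-flip permutation p = 0.0156, adjusted p = 0.0184), but with at least 2 calls required per cytosine it was 2.02 points and did not pass. With flank CpGs in or within 1 kb of protein-coding genes left out, the control excess of all bodies shrank to 0.314 points and was no longer past the threshold. That of low-density bodies did not pass with those flanks (1.07 points), with flanks of 1 kb (0.511) or with each member weighted alike (1.31). Among the 223 unprocessed members alone the differences from flanks changed sign, to -0.520 points for all bodies and -1.02 for low-density bodies in control cells and -1.92 for all bodies in Dnmt1 KO cells, none of which passed.

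Along the gene strand the control level of middle-density members rose from 71.3% in the bin 400 to 200 bp upstream of the start to 78.7% in the leading 10% of the body and 83.2% just ahead of its middle, and returned to 78.4% by 200 to 400 bp past the end (means of the 5 control libraries of days 6 to 11). High-density members dipped ahead of the start, from 74.8% at 800 to 600 bp upstream to 61.6% ± 7.36 (SD, n = 5) in the last 200 bp. The leading 10% of the body was at 70% ± 6.62 (SD, n = 5), the next 10% at 62.6% ± 8.96, the part just ahead of the middle at 66.1% ± 8.15 and the last 10% at 75.2%. Low-density members showed no dip of this size, with 79.8% in the last 200 bp upstream. In Dnmt1 KO cells of the same days, high-density members were at 20% in the last 200 bp upstream and 31.3% in the last 10% of the body. These positions were chosen after the profile was seen and carry no test.

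**Figure D3:**
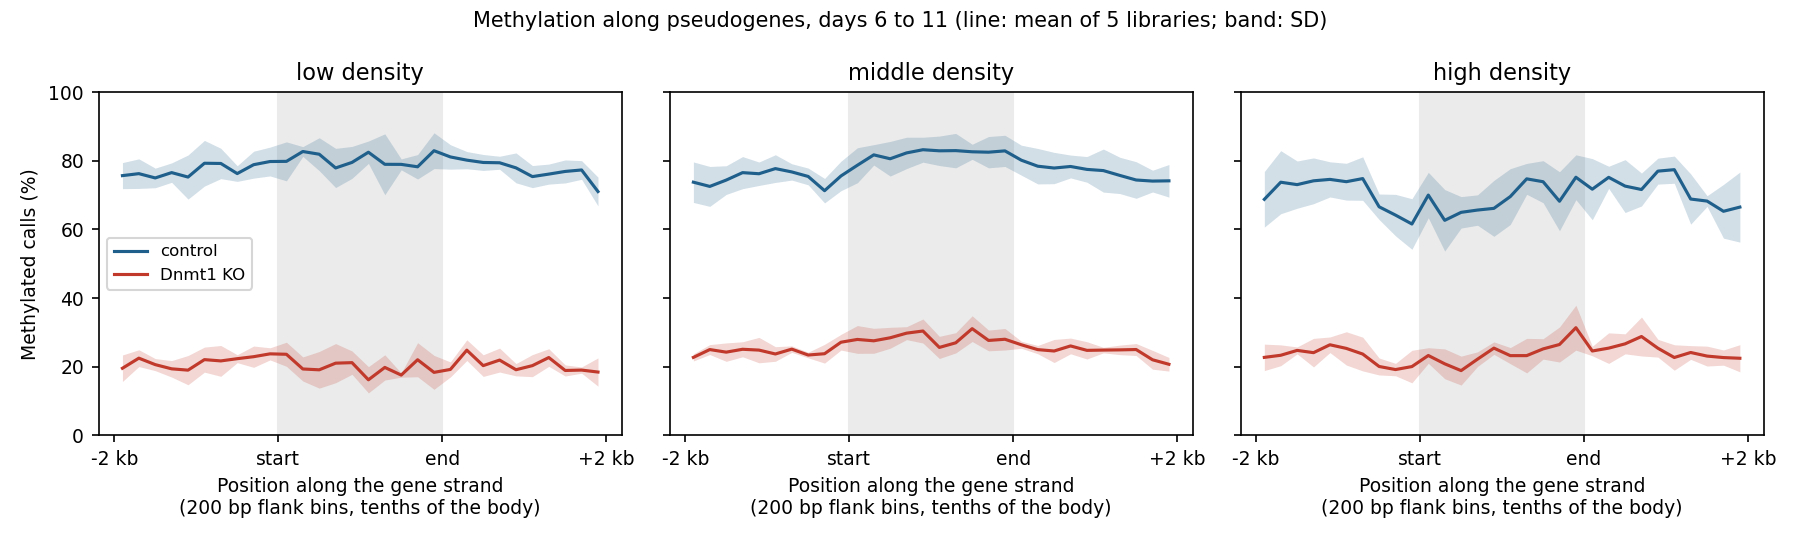
Methylated calls in percent (y axis) in 200 bp bins of the flanks and in 10 equal parts of the body (grey) along the gene strand (x axis), with the mean (line) and SD (band) of the 5 libraries per genotype of days 6 to 11. Middle-density bodies form a plateau of 78.7% to 83.2% in control cells, and high-density members are at 61.6% just ahead of the start, 70% in the leading 10% of the body and 62.6% in the next 10%.

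The level of a CpG in these cells depends on how many CpGs lie near it, so each class was set beside autosomal CpGs outside the members that have the same number of CpGs within 250 bp on either side. These matched CpGs include those in and near protein-coding genes, which the members by rule do not overlap. What part this plays in the differences was not tested. Control bodies of high density were at 68.2% ± 3.28 (SD, n = 9) where CpGs of matched density were at 51.0% ± 3.05, a difference of 17.2 points ± 1.32 in 9 of 9 libraries. Middle-density bodies were 5.89 points above their matched level ± 0.679 (SD) in 9 of 9 libraries, and all bodies together 8.43 ± 0.621 in 9 of 9. These 3 differences had p = 0.0039 and an adjusted p of 0.00651 (exact sign-flip permutation). Low-density bodies differed from theirs by 0.249 points ± 1.76 (SD), higher in 5 of 9 libraries (exact sign-flip permutation p = 0.688, adjusted p = 0.688). With density limits of 1.5 and 4 CpGs per 100 bp this became an excess of 1.46 points that passed, and without replicate 1 of day 11 it was -0.085 points. Among the unprocessed members alone, all bodies were at -1.43 and low-density bodies at -2.24 points from the matched level. Of these members 4 are of high density with 364 calls in all, and high-density bodies lay 30.7 points below the matched level (exact sign-flip permutation, adjusted p = 0.013). Hist2h3c2, described further on for its low control level, supplied 193 of these 364 calls and 84 of the 195 CpGs.

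In Dnmt1 KO cells of days 3 to 11 the high-density excess was smaller in points. High-density bodies were at 26.1% ± 4.59 (SD, n = 7) against a matched 20.6% ± 2.72, an excess of 5.53 points ± 1.95 in 7 of 7 libraries, and all bodies exceeded their matched level by 2.02 ± 1.5 in 7 of 7. Low-density bodies lay 2.50 points below theirs (SD 1.63), with 0 of 7 libraries above (exact sign-flip permutation p = 0.0156 and adjusted p = 0.0184 for each of these 3). The low-density difference did not pass without near-identical copies (-2.21 points), with processed members alone (-1.28) or with density limits of 1.5 and 4 CpGs per 100 bp (-1.01). The middle-density excess of 1.24 points ± 1.61 did not pass the threshold (exact sign-flip permutation p = 0.0781, adjusted p = 0.0868), and it did pass at 1.65 points when replicate 1 of day 9 was left out (adjusted p = 0.0347), at 2.57 points without cytosines of over 20 calls and at 2.66 points with density limits of 1.5 and 4 CpGs per 100 bp. With CpGs required to have at least 2 calls in the library, the excess of all bodies became -0.275 points, that of middle-density bodies -0.779 points and that of high-density bodies 2.82 points, which no longer passed.

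Relative to the control level, low-density bodies kept less than CpGs of matched density. They kept 29.0% ± 7.49 (SD, n = 7) against 32.4% ± 6.53, lower in 7 of 7 libraries (two-sided exact sign-flip permutation p = 0.0156, adjusted p = 0.0469 over 6 tests added after the data were seen). This p-value is the smallest that 128 arrangements allow, and the 6 tests were not repeated under other settings. As for the share kept in flanks, libraries of a day were divided by the same control mean, so the units are not independent. The SDs again hold the change over days. The differences of all bodies (-1.63 points), middle-density bodies (-1.40) and high-density bodies (-2.17) did not pass in these tests, with an exact adjusted p of 0.075 each.

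Finer steps of density show where the level broke. In control libraries of days 6 to 11 the bodies were at 76.7% ± 3.14 (SD, n = 5) under 0.5 CpGs per 100 bp and at 83.0% ± 3.36 at 1.5 to under 2. At 3 to under 4 (183 members) they were at 79.6% ± 3.92, where matched CpGs had fallen to 63.0%. At 4 to under 5 (88 members) bodies were at 65.1% ± 6.16 against 43.3%, and at 5 or more (54 members) at 42.9% ± 11 against 29.0%. Within the low class, bodies under 0.5 lay below their own flanks (79.3%), while those of 0.5 to under 1 lay above (81.3% against 75.7%). Within the high class, bodies of 3 to under 4 lay above their own flanks (73.5%), while those of 4 to under 5 and of 5 or more lay below (71.5% and 59.2%). These steps were not tested. In Dnmt1 KO libraries of the same days the bodies rose with density from 15.8% ± 5.13 under 0.5 CpGs per 100 bp (337 members) to 29.5% ± 4.25 at 3 to under 4, and were at 14.9% ± 2.11 at 5 or more. Both genotypes therefore had lower levels in the densest bodies than in those of 3 to under 4 CpGs per 100 bp.

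**Figure D4:**
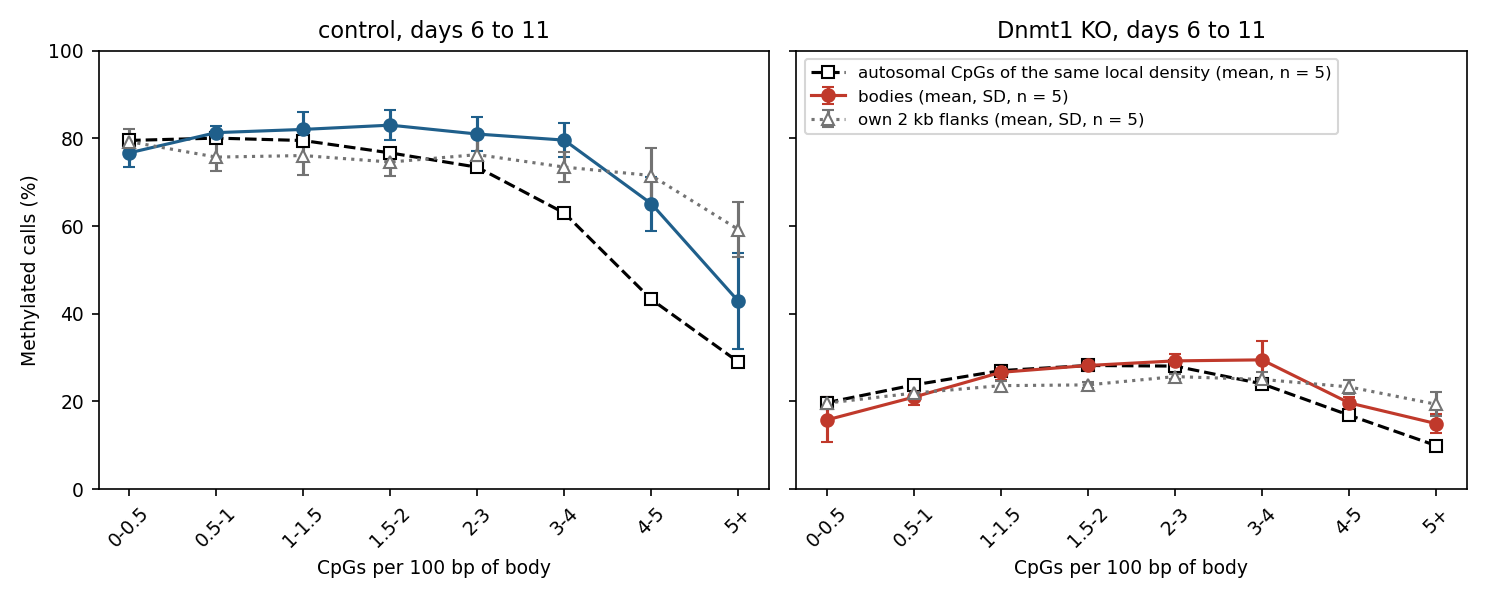
Methylated calls in percent (y axis) by CpGs per 100 bp of body (x axis) for bodies, their own flanks and autosomal CpGs of the same local density, in control (left) and Dnmt1 KO (right) libraries of days 6 to 11, with the mean of 5 libraries and, for bodies and flanks, the SD. Control bodies hold 79.6% at 3 to under 4 CpGs per 100 bp, where matched CpGs are at 63.0%.

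Processed and unprocessed members differed in Dnmt1 KO cells. Processed bodies had 29.1% ± 5.20 (SD, n = 7) methylated calls at days 3 to 11 and unprocessed bodies 18.5% ± 6.11, a difference of 10.6 points in 7 of 7 libraries (two-sided exact sign-flip permutation p = 0.0156, adjusted p = 0.0469 over the 6 added tests). This p-value is the smallest that 128 arrangements allow, and the 6 added tests were not repeated under other settings. In control cells processed and unprocessed bodies were at 77.9% ± 2.66 and 76.1% ± 4.54 (SD, n = 9), and the difference of 1.79 points was in favour of processed members in 5 of 9 libraries (exact sign-flip permutation p = 0.398, adjusted p = 0.398). The kinds also differed in density, with medians of 1.74 CpGs per 100 bp for processed and 0.529 for unprocessed members, and unprocessed bodies received 5984 calls in all. Set beside CpGs of matched density in Dnmt1 KO cells of days 3 to 11, processed bodies differed by 2.19 points and unprocessed bodies by -6.19 points (exact sign-flip permutation, adjusted p = 0.0195 and 0.0347). The flanks of the 2 kinds differed too at days 6 to 11 in Dnmt1 KO cells, at 23.8% ± 0.823 for processed and 17.2% ± 1.11 for unprocessed members (SD, n = 5), a comparison with no test.

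Levels were also summed by family of the matched parent gene. At days 6 to 11 (5 libraries per genotype), members matching large-subunit ribosomal proteins were at 81.2% ± 3.75 (SD) in control and 26.9% ± 0.913 in Dnmt1 KO cells, and those matching small-subunit proteins at 77.8% ± 6.51 and 25.6% ± 2.31. Copies of glycolytic enzymes were at 86.6% ± 3.94 and 33.7% ± 3.46. Among them the 51 copies of Gapdh, which encodes a glycolytic dehydrogenase, were at 86.4% ± 4.55 and 36.7% ± 5.31. Copies of translation factors were at 82.8% ± 2.77 and 30.7% ± 7.51, and those of cytoskeletal proteins at 86.6% ± 5.74 and 30.6% ± 11.

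The receptor families, which sense odours and pheromones and have many unprocessed copies, had lower Dnmt1 KO levels. Olfactory receptor matches were at 81.4% ± 2.37 (SD) in control and 16.8% ± 5.18 in Dnmt1 KO cells, and vomeronasal receptor matches at 78.1% ± 4.03 and 16.5% ± 3.95. Their flanks were also low in Dnmt1 KO cells, at 13.7% ± 1.18 and 15.9% ± 0.812. Copies of high mobility group proteins, which bind DNA in chromatin, were at 74.2% ± 7.0 and 19.0% ± 6.70, and zinc finger copies at 81.8% ± 4.14 and 19.0% ± 5.53. The families were compared with no test, and the cytoskeletal copies had as few as 28 calls in a library.

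The 7 Dppa copies, whose parents encode proteins found in pluripotent cells, were at 77.6% ± 11 (SD, n = 5) in control and 30.9% ± 8.15 in Dnmt1 KO cells of days 6 to 11. Gm14058 (chr2:122040356-122041090), which is 98.9% identical to Dppa4, had 83.3% of 24 calls methylated in control and 61.5% of 26 in Dnmt1 KO cells. Replicate 1 of day 11 supplied 13 of 18 methylated, and without it the Dnmt1 KO level of Gm14058 was 3 of 8 (37.5%). Gm9788, which is 99.3% identical to Dppa2, had 85.7% of 49 calls and 31.0% of 58. Gm11649, a copy of Dppa5a, had 35.3% of 17 calls and 7.14% of 14. With so few calls the 7 members could not be ordered.

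Members with near-identical copies elsewhere in the genome received fewer calls. Another copy at 95% identity or more over at least 50% of the body was found for 689 members, and this share rose from 23.5% of the low-density to 55.7% of the high-density class. Bodies without another copy received 7.68 calls per CpG over the 18 libraries, while the 235 members with a copy at 99% or more received 2.60. Their levels lay close together: at days 6 to 11, members without a copy were at 78.5% ± 2.50 (SD, n = 5) in control and 26.6% ± 2.04 in Dnmt1 KO cells, and members with a copy at 99% or more at 76.3% ± 4.49 and 24.2% ± 2.71. In the high-density class the corresponding control levels were 69.1% ± 4.04 and 71.5% ± 5.47.

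Member by member, most pseudogenes that could be tested were lower in Dnmt1 KO cells. A quasi-binomial model with day as a term was fitted to every autosomal gene with at least 20 calls per genotype and calls in at least 4 libraries of each genotype at days 3 to 11, and calls needed an adjusted p under 0.05 together with a shift of 10 points or more. Of all 25148 genes tested, 93.4% were called lower and 0 were called higher, with 1 gene higher at an unadjusted p under 0.05 in the quasi-binomial model and 0 higher genes called by limma. Of the 1975 members, 726 passed the filter, and 581 of them (80%) were called lower and 0 higher, with 0 higher at an unadjusted p under 0.05 in the model and 0 called higher by limma. The tested members had a median of 86 calls over the 14 libraries, against 1053 for all genes tested. The median difference was -50.9 points in the members and -45.2 points over all genes tested. By class, 62 of 71 tested members of low density, 379 of 464 of middle density and 140 of 191 of high density were called. Of the 145 tested members that were not called, 23 had a control level under 30%, and 17 of these 23 were of high density. Over all autosomal genes tested, 1151 of the 1661 that were not called had a control level under 30%.

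Pooled over days 6 to 11, 525 members had at least 20 calls in each genotype. Their control levels ran from 0.971% to 100% with a median of 84.7%, and 342 members were at 80% or more. In Dnmt1 KO cells their median was 25%, 182 members were under 20%, and 1 member was at 80% or more. Most members with low control levels were dense: 13 of the 17 members under 20% in control cells were of high density and 4 of middle density. In a wider set, the members with at least 20 calls over all 9 control libraries, the 37 with a control level under 30% had kept 70.9% of the CpGs of their matched transcript and the 986 at 70% or more 53.3%.

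**Figure D5:**
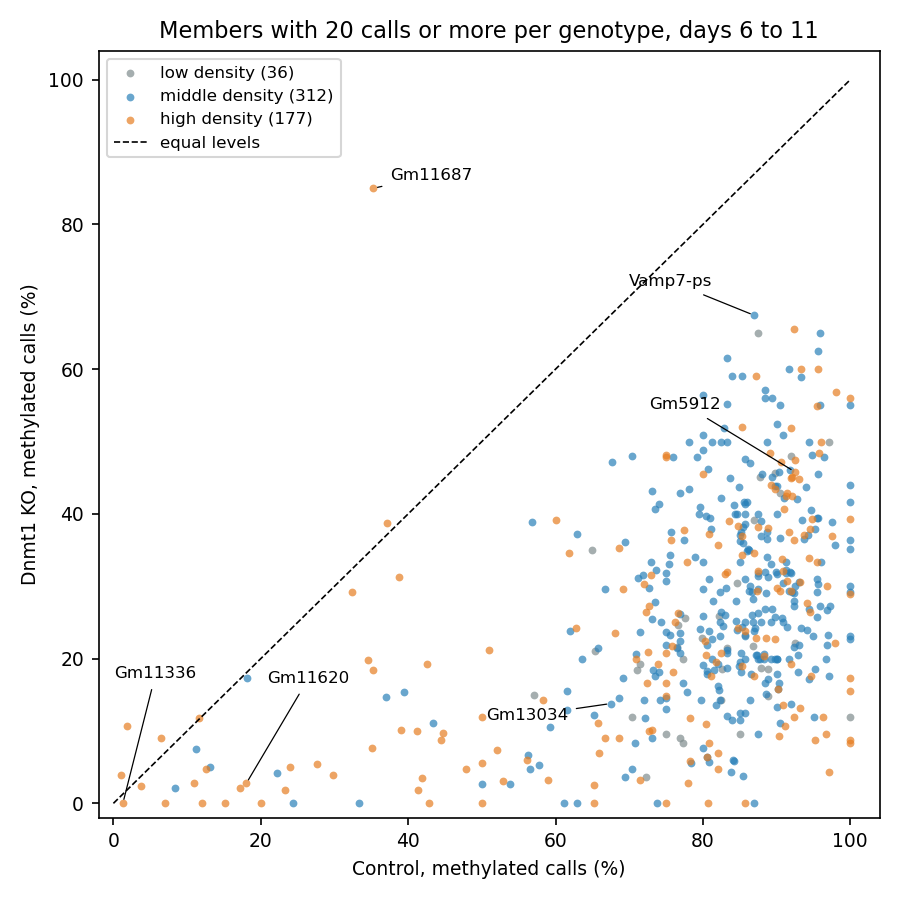
Dnmt1 KO level (y axis) against control level (x axis), both in percent of methylated calls pooled over days 6 to 11, for the 525 members with at least 20 calls in each genotype, coloured by density class. Most points lie at 75% or more on the x axis and under 40% on the y axis, and 6 lie above the line of equal levels.

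The members with the lowest control levels, chosen by that value and described with no test, were dense and in part histone copies. Intervals given for single members are exact 95% binomial (Clopper-Pearson) intervals, which treat each call as independent and cover counting error only. A read that spans several CpGs gives several calls, so the calls of a member are not independent and these intervals can be too narrow. Reads without molecular identifiers also need not be independent molecules. Hist3h2bb-ps, 95.3% identical to the histone H2B gene Hist3h2ba and with 6.45 CpGs per 100 bp, had 0.971% of 103 control calls methylated (0.0246% to 5.29%) and 3.95% of 76 Dnmt1 KO calls (0.822% to 11%). Gm11336, a copy related to the H2A gene Hist1h2ai and the densest eligible member at 9.88 CpGs per 100 bp, had 1.28% of 78 control calls and 0 of 48 Dnmt1 KO calls (up to 7.40%). Its flanks were at 3.14% in control cells, so that the low level extended beyond the body. Hist2h3c2 (chr3:96042040-96043050), which has the symbol of a histone H3 gene and a copy at 100% identity, had 6.98% of 43 control calls and 0 of 36 Dnmt1 KO calls.

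Others of the lowest were retrocopies of other genes. Rpl36-ps8 (chr4:116512512-116512826), from a ribosomal protein gene, had 1.79% of 56 control calls methylated while its flanks were at 55.0%, and Gm16437 (chr19:7742777-7743283), a copy of the iron-sulfur cluster scaffold gene Iscu, had 6.45% of 31 while its flanks were at 83.0%. The 31 calls of Gm16437 came from 3 libraries of days 6 and 11, with 0 calls at day 9, and its earlier control libraries were not all low, with 15 of 22 methylated in replicate 2 of day 1 and 10 of 21 in replicate 1 of day 3. Rpl36-ps8 and Gm16437 were at 10.6% of 47 and 9.09% of 44 calls in Dnmt1 KO cells, and the intervals of both genotypes overlapped. These low levels rest on 0 to 5 methylated calls, and single libraries move those above 0 by over 1.5 times: all 3 methylated control calls of Hist2h3c2 came from day 6, and 3 of the 5 methylated Dnmt1 KO calls of Rpl36-ps8 from replicate 1 of day 11, without which it had 2 of 33.

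Members with the highest Dnmt1 KO levels, likewise chosen by that value and given with no test, stood above their flanks, which were at 14.1% to 44.4%, although for Gm14058, whose flanks were at 44.4%, this rests on replicate 1 of day 11, as given above. Vamp7-ps, named for a vesicle fusion protein and without a coding match by the criteria used, had 67.4% of 43 Dnmt1 KO calls methylated at days 6 to 11 (51.5% to 80.9%) and 87.0% of 69 control calls, while its flanks were at 28.2% in Dnmt1 KO cells. Its Dnmt1 KO calls came from 16 of 21 methylated at day 6, 3 of 6 and 5 of 8 at day 9, and 5 of 8 in replicate 2 of day 11, but 1 of 17 in replicate 2 of day 3. Glns-ps1 (chr11:19620358-19621475), a copy of the glutamine synthetase gene Glul, had 65.5% of 58 calls (51.9% to 77.5%) against 92.3% of 52 in control. Gm13163, Gm7910 and Rpl15-ps1, copies related to Rplp1, Vdac1 and Rpl15, followed with 65.0% of 20, 65.0% of 20 and 62.5% of 24 calls, and Gm14058 with the value given above. The lower bounds of these 4 were 40.6% to 40.8%, so that their order is within counting error.

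The members with most calls allow a view per library. Gm13034, the Smarca5 copy shown above, had 415 control and 404 Dnmt1 KO calls at days 3 to 11, at 59.8% and 14.1% methylated (quasi-binomial model, adjusted p = 4.68e-05). Its control replicates disagreed: at day 9 the counts were 38 of 79 and 73 of 81 methylated, and at day 3 28 of 40 and 31 of 95. The Dnmt1 KO libraries of days 3 to 11 ranged from 5 of 52 to 5 of 25 methylated, all below the control libraries in proportion. Gm13135, a copy of the same mRNA, was at 69.5% of 325 and 19.3% of 322 calls (quasi-binomial adjusted p = 1.53e-05).

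Both Smarca5 copies lie in a stretch of chromosome 4 that holds 2 other members named here. Gm13034 (chr4:146034925-146038329) and Gm13135 (chr4:146650085-146653205) are joined there by Gm13163 (chr4:146568985-146569320) and Vmn2r-ps19 (chr4:146817580-146818138), and all 4 have another copy in the genome at 96.9% to 99.4% identity. Vmn2r-ps19 carries a vomeronasal receptor symbol, but its best coding match was Tlk2, a kinase gene, at 95.9% identity on the sense strand. It had 33.3% of 42 control calls methylated and 0 of 44 Dnmt1 KO calls at days 6 to 11. The control libraries differed, with 7 of 7 and 3 of 3 calls methylated at day 9 but 1 of 11 at day 6 and 3 of 16 and 0 of 5 at day 11, and without replicate 1 of day 9 the control level was 20% of 35.

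Gm11620, a dense copy related to 2510012J08Rik with 6.50 CpGs per 100 bp, was already low in control cells, with 19.1% of 388 calls methylated against 6.70% of 194 in Dnmt1 KO cells (quasi-binomial adjusted p = 0.0471). This call was lost in 9 of 12 refits that each left out 1 library (quasi-binomial adjusted p of 0.01 to 0.118 over the 12). Its flanks were at 60.4% in control cells of days 6 to 11. Gm5067 (chr5:26333567-26334575), a copy of the ribosome biogenesis gene Rrs1, fell from 44.4% of 189 to 5.92% of 304 calls (adjusted p = 7.69e-06 in the quasi-binomial model). Gm5912 (chr8:98101371-98102808), a copy of Gpkow, kept more: 91.6% of 179 control and 57.2% of 159 Dnmt1 KO calls (quasi-binomial adjusted p = 0.000232), with 38 of 45 methylated in replicate 2 of day 3 and 7 of 21 in replicate 2 of day 11. Gm15455 (chr1:33892744-33895759), a copy of the RNA-binding protein gene Rbm10, was at 72.8% of 191 and 25% of 228 calls (quasi-binomial adjusted p = 3.07e-05).

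Of the densest members not yet described, Gm16379 (chr9:14649688-14650215), a copy of the cytokine gene Mif, was at 48.4% of 91 control and 10.2% of 157 Dnmt1 KO calls (quasi-binomial adjusted p = 0.0106). Its control libraries ran from 19 of 27 methylated in replicate 1 of day 3 to 2 of 15 in replicate 2 of day 11, while replicate 2 of day 11 of the Dnmt1 KO cells had 2 of 8. Without day 6, which held 11 of the 16 methylated Dnmt1 KO calls, the Dnmt1 KO level was 6.41% of 78. Gm13611 (chr2:32127329-32127712), another copy related to Rpl36, was at 73.4% of 79 and 28.2% of 85 (quasi-binomial adjusted p = 0.00198). Its sequence is denser than 7 CpGs per 100 bp, as is that of Rpl36-ps8, yet their control levels at days 6 to 11 were 72.7% (59.0% to 83.9%) and 1.79% (0.0452% to 9.55%). Gm6623 (chr17:36316059-36316602), related to Akirin1, was at 19.3% of 57 and 1.42% of 141 (quasi-binomial adjusted p = 0.0186). This call rested on replicate 1 of day 9 in control cells, which held 9 of its 11 methylated control calls. Without that library the control level was 5.56% of 36 (quasi-binomial adjusted p = 0.293), and the call was also lost without replicate 2 of day 9 of the Dnmt1 KO cells (quasi-binomial adjusted p = 0.185).

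By the gene's own symbol, most members carry only a predicted-gene name, 1675 of 1975, and the named families are small. Olfr650-ps1, the most called olfactory member, was at 89.1% of 92 control and 46.2% of 80 Dnmt1 KO calls of days 3 to 11 (quasi-binomial adjusted p = 0.00202). Rpl18-ps2 was at 71.8% of 103 and 10% of 160 (quasi-binomial adjusted p = 4.15e-05), and Eif4a-ps4 at 88.0% of 75 and 50% of 36 (quasi-binomial adjusted p = 0.0212). Rpsa-ps4 was at 84.2% of 76 and 56.1% of 66, which did not pass (quasi-binomial adjusted p = 0.0509). With 1 library left out, Rpsa-ps4 passed in 4 of 12 refits (quasi-binomial adjusted p of 0.018 to 0.284) and the call of Eif4a-ps4 was lost in 2 of 12 (quasi-binomial adjusted p of 0.00308 to 0.0713). AU015228, related to the transcription factor gene Gtf2e1, was at 90.9% of 143 and 36.8% of 144 (quasi-binomial adjusted p = 8.07e-07).

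Of the 525 members with at least 20 pooled calls in each genotype, 6 had a higher level in Dnmt1 KO than in control cells at days 6 to 11, and all 6 were of high density. They were noticed after their values were seen. Gm11687 (chr2:143968224-143969109), a copy of Rps2, was the most divergent, with 85.0% of 20 Dnmt1 KO calls and 35.3% of 34 control calls. All 20 of its Dnmt1 KO calls came from replicate 1 of day 9, and 33 of the 34 control calls from replicate 2 of day 11, so its levels rest on 1 library per genotype. The other 5 were Rpl36-ps8, Gm9835, Gm4875, Hist3h2bb-ps and Gm16437, with control levels of 0.971% to 37.1%. Apart from Rpl36-ps8, each of the 6 either turned to a lower Dnmt1 KO level when 1 library was left out or, as Gm11687, rests on 1 library. The earlier libraries of Rpl36-ps8 did not show a higher Dnmt1 KO level. Its control counts were 1 of 3 and 1 of 17 methylated at day 1 and 1 of 5 and 1 of 10 at day 3. Its Dnmt1 KO counts were 1 of 18 in replicate 1 of day 1 and 0 of 4 in replicate 2 of day 3. Rpl36-ps8 also has another copy in the genome at 99.7% identity. Without replicate 1 of day 9 of the Dnmt1 KO cells, Hist3h2bb-ps had 0 of 53 Dnmt1 KO calls methylated, Gm16437 1 of 34 and Gm9835 1 of 23, and without replicate 2 of day 9 Gm4875 had 6 of 23.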

How the data were processed

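The study made whole-genome bisulfite libraries from genomic DNA of 18 ESC samples and, per the labels, aligned the reads with Bismark to NCBIM37. The submitters' processing notes name Bismark version 0.12.3, while the study's methods give a later version. The deposited files list each covered cytosine with its counts of methylated and unmethylated calls and a percent methylated, which the authors derived from those counts. Only the counts were analysed. Counts at the 2 cytosines of a CpG were added. The reference genome and the GENCODE vM1 annotation are of the same build as the files.

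For each library, methylated and unmethylated counts were summed over member bodies and over 2 kb flanks, each CpG counted once per set. Genotypes were compared by permuting genotype labels within days, and paired quantities by sign flips over libraries, both two-sided and exact, with Benjamini-Hochberg adjustment over 20 tests. Libraries are the units and all measure the same CpGs, so these p-values do not measure variation between pseudogenes. A sign-flip p at its smallest possible value tells only that the difference had the same sign in every library. Matched density means autosomal CpGs outside member bodies, in classes of the number of CpGs within 250 bp, capped at 40 and weighted as the calls of the bodies. CpGs in and near protein-coding genes were not left out of the matched CpGs. Per-gene tests used a quasi-binomial model with dispersions moderated by limma 3.58.1 (R 4.3.3) over all autosomal genes. On simulated data for the comparison of days 3 to 11 in 25148 genes, 24 of 100 genes lowered by 20 points and 74 of 100 lowered by 40 points were recovered, with 8 false calls among 24948 unchanged genes. The simulation left most genes unchanged, whereas 93.4% of the genes tested were called lower in the data. Its lowered genes were drawn from all tested genes and not from the thinly covered members. These rates therefore do not describe the calls of members. Copies and matches were found with minimap2 2.31 and BLAST 2.17.0, where a symbol of a named gene was preferred at 80% or more of the best score.

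Members were named by rule if they had bodies of at least 200 bp and at least 20 calls per genotype at days 6 to 11: the 6 with the highest Dnmt1 KO level at a control level of 50% or more, the 6 with the lowest control level, the 6 densest, the 6 most called and the most called of each symbol family. Families by symbol without an eligible member (high mobility group, glycolysis, cytoskeleton, zinc finger, pluripotency) give no name, and 1 of the members with the lowest control level is not reported here. The Dppa copies Gm9788 and Gm11649, the latter under that minimum, and the members higher in Dnmt1 KO cells were chosen after their values were seen. The members, lists and tests were chosen with earlier results of these data known. Alternatives covered pairing, coverage, weighting, flanks, density limits, copies, length, kind of pseudogene and left-out libraries.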

Additional observations from a re-analysis of the deposited data

How the results depend on the processing

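Of the 597 values recomputed under 34 other settings, 563 kept their direction and their side of the threshold, or for a count stayed within 1.5 times. The genotype differences of bodies and flanks did so throughout, except for the 4 unprocessed members of high density, where the difference was -7.15 points. Settings for processed and unprocessed members were chosen after seeing the data. The 6 tests added after the data were seen are not among the recomputed values. For the changes listed here the cause was not tested. With cytosines over 20 calls left out, the middle-density excess over matched CpGs in Dnmt1 KO cells was 2.57 points and passed. With at least 2 calls per cytosine, Dnmt1 KO bodies exceeded flanks by 2.02 points without passing, differed from matched CpGs by -0.275 (all), -0.779 (middle) and 2.82 (high, no longer past the threshold), and the share kept exceeded that of flanks by 1.27 without passing. The genotype difference of the excess over flanks, which passed in no setting, changed sign to 1.46 with each member weighted alike, 0.0729 with flanks of 1 kb, 1.04 with flanks clear of coding genes and 0.374 without near-identical copies. In control cells the low-density excess over flanks was 1.31, 0.511 and 1.07 points under those weights and flanks and did not pass, nor did the 0.314 of all bodies with flanks clear of coding genes. With limits of 1.5 and 4 CpGs per 100 bp, low-density bodies exceeded matched CpGs in control cells by 1.46 and passed, were at -1.01 in Dnmt1 KO cells and did not pass, and middle-density bodies at 2.66 in Dnmt1 KO cells and passed. The low-density value in Dnmt1 KO cells did not pass without near-identical copies (-2.21) or with processed members alone (-1.28).

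With the 223 unprocessed members alone, bodies minus flanks in control cells was -0.520 (all), -1.02 (low) and 3.43 (middle, not passing), and -1.92 in Dnmt1 KO cells. Bodies minus matched CpGs was -1.43 (all), -2.24 (low) and -30.7 (high) in control cells, and -6.19 (all), -3.15 (middle) and -3.44 (high) in Dnmt1 KO cells. The share kept, bodies minus flanks, was -2.70 points. Leaving out 1 library at a time gave ranges of -0.085 to 0.549 points for low-density bodies minus matched CpGs in control cells, negative without replicate 1 of day 11, and 0.836 to 1.65 points for middle-density bodies in Dnmt1 KO cells, past the threshold without replicate 1 of day 9. The count of members called lower was 488 to 524 with 1 library left out, 809 with a filter of 10 calls, 258 with a filter of 40 calls, 592 with limma and 434 without day 6. The number of members tested depends on the filter and on the libraries used, so these counts are not shares. With limma the 592 were of 726 members tested, against 23507 of all 25148 genes tested.

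Of the named members whose adjusted p is given, Gm6623, Gm11620 and Eif4a-ps4 lost their call and Rpsa-ps4 gained one with 1 library left out, a check added after seeing the data. Gene by gene, no pairing of the samples by replicate number was seen: the correlation of replicate differences between genotypes was -0.0153, -0.00197, -0.00595 and -0.00786 at days 1, 3, 9 and 11. A shift common to all genes of a library would not show in this correlation, so it cannot decide whether replicates were handled in pairs. With the replicate block the differences were the same as without it, -41.2 points for bodies and -0.248 for the excess over flanks (exact permutation p = 0.449), and 524 of 726 members tested were called lower. The alternative of separate gene classes for processed pseudogenes could not be run, because the annotation gives all members 1 gene class. Of the 1975 members, 1249 did not pass the filter of the gene model, including the 152 with no call.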
